A study of Drosophila melanogaster with 8 samples.

Results

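Malpighian tubules of adult females were compared between a European and an African population of Drosophila melanogaster. The European females came from isofemale lines of the Netherlands and the African females from isofemale lines of Zimbabwe, and each population was represented by 2 libraries. These 4 libraries were taken by their labels from the 8 of the series, which also holds 2 libraries of European males and 2 of African males. According to the labels all flies were 2 to 4 days old and were reared on standard medium at 22° with 14 h of light and 10 h of dark, whereas the study's methods give an older age and a different anesthetic. No allele or agent was applied to any group, so origin was the factor that separated the females. Each library was a pool of tubules over all lines of its population, and both replicates of a population pooled the same lines. The tests below therefore measured the spread between pools and not the spread between lines or between flies.

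The Malpighian tubules are the excretory and osmoregulatory organ of insects. Principal cells carry a V-type proton pump that drives potassium into the lumen, stellate cells let chloride and water follow, and both cell types are surrounded by a thin muscle layer. The tubule is also a main site of detoxification, where cytochrome P450 enzymes oxidize foreign compounds and transferases attach glutathione or sugars to them, and it breaks down purines through urate oxidase. Populations of D. melanogaster outside Africa are derived from African ancestors, and expression differences between them have been sought as traces of adaptation to the new habitats.

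Expression was given as RPKM, that is reads per kilobase of transcript per 1000000 mapped reads. The female libraries held 19528634 and 27099855 reads in European females, against 19577921 and 26694208 reads in African females, and for genes with at least 50 reads in a population the median difference between its replicates was log2 0.11 in European and 0.12 in African females. Genes of principal cells had a geometric mean of 213 and 212 RPKM in European females, against 235 and 238 RPKM in African females, whereas the geometric means of neuron and of testis genes were below 1 RPKM in all 4 libraries. The labeled tissue therefore had its own markers at high level. The African replicates differed more from each other, with 21 genes at least 10-fold above the other 3 female libraries in replicate 1 and 15 in replicate 2, against 5 and 2 genes in the European replicates.

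Of 11253 genes with at least 12 reads over the 4 female libraries, 352 (3.13%) differed between the populations at an adjusted p below 0.05. The test was limma on log2(RPKM + 0.1) after TMM scaling, a correction for library composition, with Benjamini-Hochberg adjustment over all genes tested. Expression was higher in Europe for 224 genes (1.99% of those tested) and higher in Africa for 128 (1.14%). At an unadjusted p below 0.05 there were 2237 genes, and no exact permutation test over 2 against 2 libraries can go below p = 0.333. For each of the 352 genes both European libraries lay on the same side of both African ones. Over all genes tested, called or not, both European libraries were above both African ones in 26.9% and below them in 25.8%. The median called gene was 2.08-fold higher in Europe or 1.89-fold higher in Africa, and 45 and 23 genes differed more than 4-fold. The median log2 fold change of all genes tested was 0.0076. With library size as the only scaling the split became 305 genes higher in Europe and 106 higher in Africa, or 74.2% instead of 63.6% on the European side. When limma estimated the spread without its trend over expression level, 4 genes were called. The counts also rested on each library. There were 195 calls without African replicate 1, 185 without African replicate 2, and 0 without European replicate 1 or without European replicate 2, when 1 European pool was left in the fit. At an unadjusted p below 0.05 these fits had 1982, 2047, 1307 and 1461 genes in the same order.

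**Figure D1:**
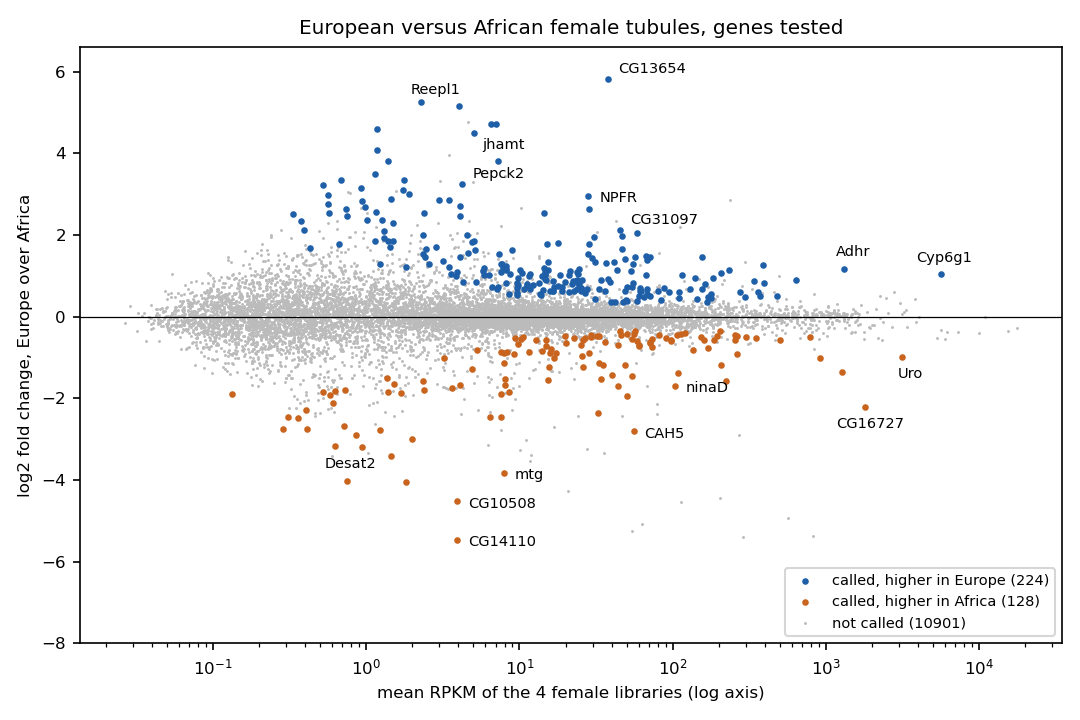
Log2 fold change of Europe over Africa in females (vertical axis) against the mean RPKM of the 4 female libraries (log axis) for the 11253 genes tested, with 224 genes called higher in Europe in blue, 128 called higher in Africa in orange and the others in gray. Called genes lie at all levels of expression, from below 1 RPKM to Cyp6g1, and several gray points far from 0 are genes of high level in a single library.

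On the log2(RPKM + 0.1) scale the called gene with the highest fold toward Europe was CG13654, a gene of unknown function on chromosome arm 3R. It was at 63.7 and 84.3 RPKM in European females, against 1.18 and 1.09 RPKM in African females (log2 fold change 5.82, SE 0.15, limma adjusted p = 0.00416). The African values were near 1 RPKM, and the ratio of the means was 65.2. Genes with almost no African reads, described below, had higher ratios or reached higher folds with other settings. LManVI and LManV, which encode lysosomal alpha-mannosidases and lie next to each other on 2L, were both higher in Europe. LManVI was at 10.1 and 16.9 RPKM in European females, against 0.760 and 0.166 RPKM in African females (log2 fold change 4.72, SE 0.62, limma adjusted p = 0.0393), and LManV at 2.66 and 3.99 RPKM in European females, against 0.283 and 0.159 RPKM in African females (log2 fold change 3.35, SE 0.32, limma adjusted p = 0.0233). In both genes the European replicates also differed from each other. Neither overlapped with the African values, which was a condition for a place among the leading genes. LManVI was at 15.7 and 12.6 RPKM in European males, against 10.6 and 0.157 RPKM in African males. LManV was at 3.24 and 2.13 RPKM in European males, against 6.48 and 0.108 RPKM in African males. Neither gene was called in males (limma adjusted p = 0.465 and 0.773), where the African replicates lay far apart.

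Expression of jhamt, which encodes the methyltransferase of the last step of juvenile hormone synthesis, was at 7.02 and 12.6 RPKM in European females, against 0.286 and 0.314 RPKM in African females (log2 fold change 4.51, SE 0.32, limma adjusted p = 0.0142). It was the only gene called by limma among 13 genes of juvenile hormone synthesis and response (7.69%, against 3.13% of all genes tested). By contrast, voom on the reads (limma on log reads with a weight for each value by its depth) called Jheh1 of this list and not jhamt. Pepck2, a gene of the phosphoenolpyruvate carboxykinase family of gluconeogenesis, was at 7.16 and 8.44 RPKM in European females, against 0.681 and 0.706 RPKM in African females (log2 fold change 3.24, SE 0.16, limma adjusted p = 0.00789). The pickpocket gene ppk5, of a family of sodium channels, was at 2.23 and 3.11 RPKM in European females, against 0.0717 and 0.105 RPKM in African females (log2 fold change 3.81, SE 0.27, limma adjusted p = 0.0142). All 3 genes were close to or below 1 RPKM in both African libraries.

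Some genes were nearly or entirely without reads in African females. CG14113 had 56 reads in Europe and 0 in Africa, a ratio of 18.5 when 3 reads over both African libraries are taken as the floor. The 56 reads are taken as exact in this ratio, and the gene passed the read filter through them alone. Reepl1, whose product belongs to a family of proteins that shape the endoplasmic reticulum, had 196 reads in Europe and 1 in Africa, a ratio of 194.5 with a 95% counting interval of 34.5 to 7721. For CG12951 the reads were 94 and 2 (ratio 46.6, interval 12.6 to 391). These intervals cover counting error only. CG12934, CG31157, CG32718 and CG18180, a predicted protease gene, completed the 12 leading genes, with log2 fold changes of 5.17, 4.72, 3.49 and 3.81.

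On the African side CG14110 led the list, at 0.0944 and 0.0680 RPKM in European females, against 9.51 and 6.04 RPKM in African females (log2 fold change -5.46, SE 0.28, limma adjusted p = 0.00837). CG10508 followed at 0.240 and 0.260 RPKM in European females, against 8.16 and 7.06 RPKM in African females (log2 fold change -4.52, SE 0.18, limma adjusted p = 0.00693), and CG10257 was at 0.149 and 0.0804 RPKM in European females, against 2.26 and 4.76 RPKM in African females (log2 fold change -4.06, SE 0.44, limma adjusted p = 0.0275). All 3 were below 1 RPKM in both European libraries. The gene mtg, whose secreted product organizes the matrix of synapses, was at 1.20 and 0.838 RPKM in European females, against 16 and 13.8 RPKM in African females (log2 fold change -3.83, SE 0.20, limma adjusted p = 0.00846). Rdh had 0 reads in Europe and 31 in Africa, a ratio of Africa over Europe of 10.4 by the same floor. CG12438 had 2 and 50 reads (Africa over Europe 25.2, interval 6.62 to 214). CG33468, CG15414 and the UDP-glycosyltransferase gene Ugt49B2 had log2 fold changes of -3.0, -2.79 and -2.91.

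CAH5, a member of the carbonic anhydrase family, was the most abundant of the 12 leading African genes. It was at 11.2 and 18.6 RPKM in European females, against 95.3 and 98.3 RPKM in African females (log2 fold change -2.81, SE 0.25, limma adjusted p = 0.019). The African replicates were nearly equal, and the European ones were both far below them. Desat2 encodes the desaturase behind a cuticular hydrocarbon that females of African and cosmopolitan populations are known to carry in different amounts, and it acts in oenocytes, cells below the cuticle. It was at 0.151 and 0.190 RPKM in European females, against 3.43 and 2.04 RPKM in African females (log2 fold change -3.41, SE 0.31, limma adjusted p = 0.0199). The male libraries held 0.220 and 0.317 RPKM in European males, against 0.129 and 0.152 RPKM in African males, so that the African females stood above the other 6 libraries of the series. As a measure of oenocytes in the pools, the 8 oenocyte genes of the marker list had a geometric mean of 11.7 and 6.10 RPKM in European females, against 11.5 and 9.79 RPKM in African females. Their member Cyp4g1 was at 95.8 and 16.2 RPKM in European and 83.6 and 52.8 RPKM in African females. The part of oenocytes in the Desat2 values was not tested.

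**Figure D2:**
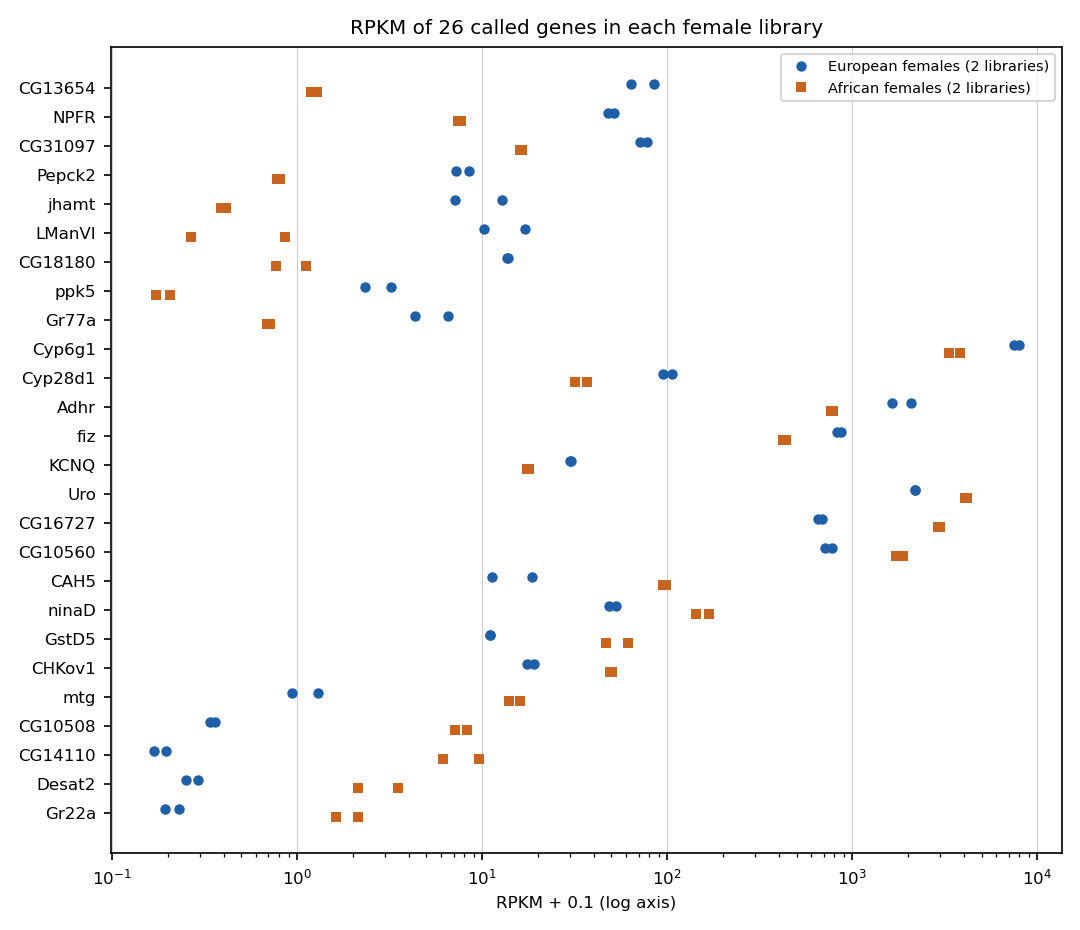
RPKM + 0.1 (log axis) of 26 called genes in each female library, with European females as blue circles and African females as orange squares, 2 libraries each and every library drawn as its own point. The first 14 genes from the top were higher in Europe and the other 12 higher in Africa. In no gene do the populations overlap, which held for every called gene.

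Called genes included abundant ones, and 53 had a mean above 100 RPKM (27 higher in Europe and 26 higher in Africa). Of the 848 genes tested above this level, 6.25% were called. Cyp6g1, the P450 gene known for resistance to DDT, was the most abundant called gene. It was at 7536 and 7947 RPKM in European females, against 3336 and 3806 RPKM in African females (log2 fold change 1.04, SE 0.13, limma adjusted p = 0.0341), a ratio of the means of 2.17. The gene fiz, which encodes a predicted ecdysone oxidase, was at 826 and 868 RPKM in European females, against 437 and 424 RPKM in African females (log2 fold change 0.90, SE 0.059, limma adjusted p = 0.0126). CG5399 was at 569 and 547 RPKM in European females, against 209.5 and 234 RPKM in African females (log2 fold change 1.25, SE 0.084, limma adjusted p = 0.0126). CG5697, CG32024 and CG8206 were higher in Europe by smaller steps, with log2 fold changes of 0.51, 0.51 and 0.59.

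Uro, the urate oxidase gene of the principal cells, was the most abundant gene higher in Africa. It was at 2185 and 2196 RPKM in European females, against 4046 and 4198 RPKM in African females (log2 fold change -0.99, SE 0.090, limma adjusted p = 0.0199). Replicates of each population were nearly equal, and the ratio of the African to the European mean was 1.88. CG16727 was at 683 and 651 RPKM in European females, against 3000.3 and 2895 RPKM in African females (log2 fold change -2.22, SE 0.072, limma adjusted p = 0.00416), a difference of over 4-fold in a gene among the most abundant of the tubule. CG32444 was at 605 and 662 RPKM in European females, against 1143 and 1267 RPKM in African females (log2 fold change -1.0, SE 0.095, limma adjusted p = 0.0222). CG6602 and CG34426 were also higher in Africa, at log2 -0.51 and -0.57. Of 16 genes of purine and pyrimidine breakdown Uro was the only one called (6.25%, against 3.13% of all genes tested). Negative values were found in 12 of the 16, against 48.7% of all genes tested, with a median log2 fold change of -0.21. The median was -0.11 without European replicate 2 and -0.29 without African replicate 2.

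Among 77 cytochrome P450 genes tested, 10 were higher in Europe and 7 in Africa, or 22.1% of the family against 3.13% of all genes tested. The median log2 fold change of the family was 0.0057, so that its members moved both ways. Besides Cyp6g1, its neighbor Cyp6g2 on arm 2R was at 100.1 and 99.8 RPKM in European females, against 31.4 and 41.1 RPKM in African females (log2 fold change 1.40, SE 0.15, limma adjusted p = 0.0267). Cyp28d1, which is known for a role in nicotine tolerance, was at 95.3 and 106 RPKM in European females, against 36.9 and 31.5 RPKM in African females (log2 fold change 1.48, SE 0.093, limma adjusted p = 0.0123). Cyp12a4, whose overexpression is known to give resistance to lufenuron, was at 524 and 502 RPKM in European females, against 295 and 257 RPKM in African females (log2 fold change 0.82, SE 0.077, limma adjusted p = 0.0222). Cyp6w1 had one of the largest folds of the family, at 23.6 and 26 RPKM in European females, against 5.33 and 2.97 RPKM in African females (log2 fold change 2.53, SE 0.28, limma adjusted p = 0.0275). The other genes higher in Europe were Cyp310a1, Cyp6d5, Cyp12e1, Cyp6a17 and Cyp4aa1, at log2 1.02, 0.63, 0.54, 0.37 and 2.36. Cpr, which encodes the reductase that passes electrons to P450 enzymes, was itself higher in Europe, at 211 and 211 RPKM in European females, against 144 and 147 RPKM in African females (log2 fold change 0.46, SE 0.050, limma adjusted p = 0.0275).

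On the African side the P450 genes included Cyp4e3, at 133 and 127 RPKM in European females, against 261 and 307 RPKM in African females (log2 fold change -1.20, SE 0.10, limma adjusted p = 0.019). Cyp4e1, of the same subfamily, was at 24.2 and 21.1 RPKM in European females, against 62.1 and 53.8 RPKM in African females (log2 fold change -1.43, SE 0.10, limma adjusted p = 0.0137). Cyp6d2 was at 19.9 and 22.4 RPKM in European females, against 57.9 and 74.6 RPKM in African females (log2 fold change -1.71, SE 0.15, limma adjusted p = 0.0193), while its relative Cyp6d5 was higher in Europe. The other members were Cyp6a18, Cyp4p1, Cyp4d1 and Cyp6t1, at log2 -0.51, -0.60, -0.86 and -0.87. P450 genes with sequence close to each other may share reads, and how the counting divided such reads was not tested.

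Glutathione S-transferases conjugate foreign compounds to glutathione. Of 35 genes tested, 2 were higher in Europe and 3 in Africa, or 14.3% against 3.13% of all genes tested. GstE10 was at 459 and 433 RPKM in European females, against 223 and 239.9 RPKM in African females (log2 fold change 0.87, SE 0.073, limma adjusted p = 0.019), and GstE6 at 203 and 185 RPKM in European females, against 109 and 124 RPKM in African females (log2 fold change 0.66, SE 0.096, limma adjusted p = 0.0474). GstD5 went the other way by a large step, at 11 and 10.9 RPKM in European females, against 61.4 and 46.5 RPKM in African females (log2 fold change -2.35, SE 0.13, limma adjusted p = 0.00948), followed by GstD9 at log2 -0.88 and GstT3 at log2 -0.49. The called genes of the E class were thus higher in Europe and those of the D and T classes higher in Africa. Gclm, a subunit gene of the enzyme that starts glutathione synthesis, was at 114 and 120.4 RPKM in European females, against 70.6 and 75.3 RPKM in African females (log2 fold change 0.61, SE 0.067, limma adjusted p = 0.0276), whereas the peroxiredoxin gene Prx6c was higher in Africa at log2 -0.42. Of 33 UDP-glycosyltransferase genes, Ugt302E1 was higher in Europe (log2 0.82) and Ugt49B2 and Ugt50B3 were higher in Africa (9.09% of the family). With voom on the reads Ugt49B2 lost its call and Ugt37D1 was called. Ugt50B3 was at 1.95 and 1.96 RPKM in European females, against 13.7 and 8.08 RPKM in African females (log2 fold change -2.45, SE 0.26, limma adjusted p = 0.0275).

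The ecdysteroid kinase-like genes are a large family in flies, with proposed roles in steroid inactivation and detoxification. Of 40 tested, 3 were higher in Europe and 7 in Africa, or 25% against 3.13% of all genes tested. CG11891 and CG11889 were neighbors in gene order, and the study places CG10560 in the CHKov1 cluster. Such members may not be independent, and shared reads among them were not tested. CG10560, the most abundant of the called members, was at 780.2 and 714 RPKM in European females, against 1723 and 1881 RPKM in African females (log2 fold change -1.35, SE 0.094, limma adjusted p = 0.0134). CHKov1, a gene known for natural alleles linked to insecticide and virus resistance, was at 18.9 and 17.5 RPKM in European females, against 49.2 and 50.4 RPKM in African females (log2 fold change -1.52, SE 0.069, limma adjusted p = 0.00693). CG33509, CG6908, CG11893, CG11889 and CG11891 were also higher in Africa, at log2 -0.83, -0.61, -0.69, -0.58 and -0.50. The opposite direction was found for CG31097, at 71.3 and 77.6 RPKM in European females, against 15.9 and 16.4 RPKM in African females (log2 fold change 2.12, SE 0.069, limma adjusted p = 0.00416), for CG33301 at log2 1.14 and for CG9497 at log2 0.73. The most abundant members of the family did not pass the test, among them CG11892 at 5543 and 5502 RPKM in European and 7146 and 6512 RPKM in African females and CG10513 at 3561 and 3356 RPKM in European and 2728 and 2511 RPKM in African females.

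Alcohol dehydrogenase oxidizes ethanol, and the aldehyde dehydrogenase removes its product. Of 8 genes of alcohol and aldehyde metabolism 3 were higher in Europe and 1 in Africa, or 50% against 3.13% of all genes tested, where the 3 include a pair of genes that share reads. Adhr was at 1649.7 and 2067 RPKM in European females, against 766 and 792 RPKM in African females (log2 fold change 1.17, SE 0.13, limma adjusted p = 0.0275), and Adh was at 20.2 and 24.9 RPKM in European females, against 7.71 and 9.02 RPKM in African females (log2 fold change 1.34, SE 0.15, limma adjusted p = 0.0275). Adh and Adhr overlap in the annotation and are known to share transcripts, so the reads of both cannot be told apart and their values count as a single difference of about the same fold. Aldh was at 348 and 360.1 RPKM in European females, against 252 and 232 RPKM in African females (log2 fold change 0.47, SE 0.057, limma adjusted p = 0.0332). The step of the aldehyde dehydrogenase thus had higher expression in European tubules. For the step before it, a difference of Adh cannot be told apart from one of Adhr. Sodh1, a sorbitol dehydrogenase gene, was higher in Africa, at 127 and 133 RPKM in European females, against 177 and 173 RPKM in African females (log2 fold change -0.51, SE 0.050, limma adjusted p = 0.0237).

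The transport machinery differed by small amounts. Of 24 V-ATPase subunit genes 1 passed the test (4.17%, near the 3.13% of all genes tested). It was Vha68-1, an isoform of the catalytic subunit, at 12.4 and 10.8 RPKM in European females, against 17.6 and 18.7 RPKM in African females (log2 fold change -0.71, SE 0.10, limma adjusted p = 0.0439). However, 21 of the 24 had negative values, against 48.7% of all genes tested. In 19 both European libraries were below both African ones, against 25.8% of all genes. The median log2 fold change was -0.19, and it stayed between -0.22 and -0.11 under the other scalings and without each library. The abundant subunit genes Vha55 and Vha26 were at 1003 and 969 RPKM in European and 1092 and 1128 RPKM in African females (limma adjusted p = 0.161) and at 1287 and 1189.8 RPKM in European and 1434 and 1397 RPKM in African females (limma adjusted p = 0.161). The genes of the mitochondrial genome behaved alike, with negative values for 13 of 13 and a median of -0.40 (-0.26 without African replicate 1). As genes of a single genome they may not be independent of each other. Limma called 0 of the 13, and 7 had an unadjusted p below 0.05, all lower in Europe, against 2237 of all 11253 genes tested. Of the 13, mt:ND5 was at 716 and 785 RPKM in European and 1144 and 949.8 RPKM in African females (limma adjusted p = 0.0819). By voom on the reads 0 mitochondrial-genome and 1 V-ATPase gene were called.

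Among 26 genes of ion channels, pumps and exchangers, KCNQ, which encodes a voltage-gated potassium channel, was higher in Europe, at 29.6 and 30.0 RPKM in European females, against 17.3 and 17.8 RPKM in African females (log2 fold change 0.69, SE 0.060, limma adjusted p = 0.019). Irk1, an inward rectifier potassium channel gene of principal cells, was at 230.4 and 228 RPKM in European females, against 289 and 312 RPKM in African females (log2 fold change -0.47, SE 0.068, limma adjusted p = 0.048). The chloride channel gene Best1 was at 47.9 and 51.1 RPKM in European females, against 64.2 and 61.6 RPKM in African females (log2 fold change -0.42, SE 0.056, limma adjusted p = 0.0396). The remaining 23 genes did not pass with limma, and voom on the reads called nrv2 as well. Limma thus called 11.5% of the list, against 3.13% of all genes tested. None of 7 aquaporin genes was called by limma, with 5 at an unadjusted p below 0.05, against 2237 of all 11253 genes tested. Eglp4, the only stellate cell gene with a positive value, was at 150.2 and 155 RPKM in European and 120.5 and 122 RPKM in African females (limma adjusted p = 0.0854). In 7 of 8 stellate cell genes and in 11 of 14 principal cell genes the values were negative, against 48.7% of all genes tested. The medians were -0.28 and -0.20 (-0.13 for principal cell genes without African replicate 2). The principal cell list includes Irk1, Best1 and Vha55 given above, so it is not separate from the channel and V-ATPase genes. Since tubules were pooled, fewer cells of a type and less RNA per cell cannot be told apart.

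Receptors for hormones and neuropeptides set the rate of secretion. Of 23 genes tested, NPFR, the receptor of neuropeptide F, was higher in Europe and Dh31-R, the receptor of a diuretic hormone related to calcitonin, was higher in Africa. The share called was 8.7%, against 3.13% of all genes tested. NPFR was at 51.5 and 47.5 RPKM in European females, against 7.31 and 7.56 RPKM in African females (log2 fold change 2.64, SE 0.075, limma adjusted p = 0.00416). The replicates of each population were close to each other and the populations far apart. The noncoding gene CR31562, its neighbor in the annotation, was also called higher in Europe, and for counts without strand reads of neighbors that overlap cannot be told apart. Dh31-R was at 98.6 and 101 RPKM in European females, against 131 and 125 RPKM in African females (log2 fold change -0.43, SE 0.047, limma adjusted p = 0.0275). SPR, the sex peptide receptor, was at 11.4 and 13 RPKM in European and 7.14 and 7.58 RPKM in African females (limma adjusted p = 0.0585), and Oct-TyrR, a receptor of octopamine and tyramine, at 5.41 and 6.97 RPKM in European and 2.18 and 1.37 RPKM in African females (limma adjusted p = 0.0554). Neither passed this test, and both were called by voom on the reads.

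Taste, smell and humidity receptors were expressed at a low level, and 73 of 179 chemoreceptor genes had enough reads to be tested. Of these, 2 were higher in Europe and 2 in Africa, a share of 5.48% that was near the 3.13% of all genes tested. Ir68a, an ionotropic receptor known from moist-sensing neurons, was at 11 and 11.8 RPKM in European females, against 4.85 and 4.77 RPKM in African females (log2 fold change 1.15, SE 0.090, limma adjusted p = 0.0162), and Gr77a at 4.25 and 6.42 RPKM in European females, against 0.585 and 0.617 RPKM in African females (log2 fold change 2.86, SE 0.25, limma adjusted p = 0.019). Gr22a was at 0.130 and 0.0934 RPKM in European females, against 2.03 and 1.52 RPKM in African females (log2 fold change -3.19, SE 0.26, limma adjusted p = 0.018), and Gr61a, a sugar receptor gene, at 0.0274 and 0.0593 RPKM in European females, against 0.766 and 0.582 RPKM in African females (log2 fold change -2.48, SE 0.27, limma adjusted p = 0.0275). Of 24 odorant-binding protein genes limma called 1 (4.17%, near the share of all genes) and voom on the reads 0. The gene called by limma was Obp56a, with 1 read in Europe and 15 in Africa (Africa over Europe 15.1, 95% counting interval 2.33 to 636).

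Genes of carotenoid uptake and of the eye formed a further group. The scavenger receptor gene ninaD was at 53 and 48.1 RPKM in European females, against 169 and 143 RPKM in African females (log2 fold change -1.70, SE 0.093, limma adjusted p = 0.00906), and santa-maria, a scavenger receptor gene of the same pathway, was higher in Europe at 6.35 and 8.51 RPKM in European females, against 2.16 and 1.28 RPKM in African females (log2 fold change 2.0, SE 0.29, limma adjusted p = 0.0474). Of the 15 photoreceptor and visual pathway genes tested, 3 were higher in Africa and 1 in Europe (26.7%, against 3.13% of all genes tested), and 12 had negative values (80%, against 48.7%). With voom on the reads Gbeta76C lost its call and ninaE was called. ninaC, which encodes a myosin of photoreceptors, was at 0.0677 and 0.202 RPKM in European females, against 1.49 and 1.10 RPKM in African females (log2 fold change -2.67, SE 0.37, limma adjusted p = 0.0436). Gbeta76C, the G protein subunit of the eye, had 3 reads in Europe and 55 in Africa (Africa over Europe 18.5, 95% counting interval 6.0 to 92.3). The defining photoreceptor genes ninaE, Arr1 and Arr2 were at 0.258 and 0.511 RPKM in European and 1.87 and 1.79 RPKM in African females, at 0.0928 and 0.134 RPKM in European and 0.579 and 0.390 RPKM in African females and at 0.0331 and 0.143 RPKM in European and 0.726 and 0.581 RPKM in African females, with limma adjusted p of 0.0539, 0.0797 and 0.0706. The geometric mean of the list was 0.468 and 0.643 RPKM in European females, against 1.11 and 1.04 RPKM in African females. A part of tissue other than tubules in the ninaC and Gbeta76C values was not tested.

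**Figure D3:**
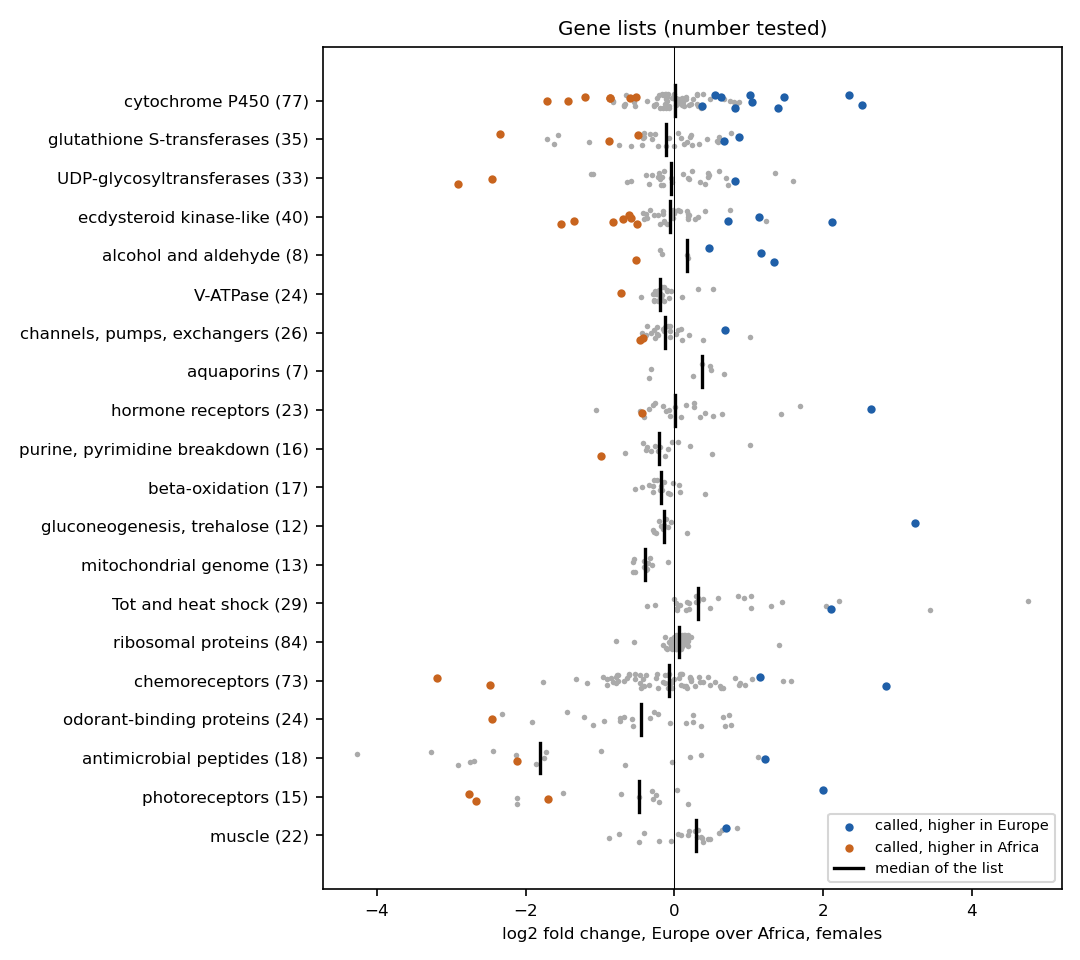
Log2 fold change of Europe over Africa in females for the members of 20 gene lists, with the number tested in parentheses, called genes in blue (higher in Europe) or orange (higher in Africa), genes not called in gray and a black bar at the median. P450 and ecdysteroid kinase-like genes spread to both sides of 0, whereas V-ATPase and mitochondrial-genome members lie mostly below 0 with 1 and 0 called.

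Several other lists leaned one way with few or no calls. Of 29 Turandot and heat shock genes, 26 had positive values with a median log2 fold change of 0.32, against 51.3% of all genes tested, and without each library the median lay between 0.22 (without European replicate 1) and 0.48 (without African replicate 2). Limma called 1 of them (3.45%, near the 3.13% of all genes tested) and voom on the reads also called Hsc70-3. The gene called by limma was Hsc70-2, a gene of the heat shock cognate family, at 2.07 and 2.34 RPKM in European females, against 0.446 and 0.379 RPKM in African females (log2 fold change 2.10, SE 0.20, limma adjusted p = 0.0234). The stress genes TotA and TotC were at 22.6 and 7.58 RPKM in European and 1.15 and 0.971 RPKM in African females and at 15.7 and 2.44 RPKM in European and 0.193 and 0.0707 RPKM in African females, with limma adjusted p of 0.056 and 0.083. Hsp83 was at 633 and 494 RPKM in European and 332 and 373 RPKM in African females (limma adjusted p = 0.131), and the cold-induced gene Fst at 656 and 197 RPKM in European and 52.2 and 42.3 RPKM in African females (limma adjusted p = 0.0908). In TotA, TotC and Fst the European replicates lay far from each other. Fatty acid beta-oxidation had negative values in 14 of 17 genes (median -0.17, and -0.098 with library size alone), against 48.7% of all genes tested. Limma called 0 of the 17, with 8 at an unadjusted p below 0.05, against 2237 of all 11253 genes tested. Of 84 cytoplasmic ribosomal protein genes 66 had positive values, with a median of 0.058, 0 calls by limma and voom and 2 at an unadjusted p below 0.05. The median was 0.0072 without African replicate 1, close to that of all genes in that fit (0.0048), and 0.13 without African replicate 2. Hex-A, a hexokinase gene, was the only gene of 14 in glycolysis called by limma (7.14%, and voom on the reads also called Ldh), at 69.4 and 73.2 RPKM in European females, against 90.2 and 94.9 RPKM in African females (log2 fold change -0.45, SE 0.063, limma adjusted p = 0.0433). CG32750 was the only called gene of 4 biotinidase-like genes (25%), at 30.3 and 29.3 RPKM in European females, against 12.7 and 13.4 RPKM in African females (log2 fold change 1.10, SE 0.070, limma adjusted p = 0.0124).

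Antimicrobial peptide genes had a median log2 fold change of -1.81 over 18 genes tested, which rested on a single library. Their geometric mean was 2.86 and 1.74 RPKM in European females, against 21.6 and 1.85 RPKM in African females. DptA, a diptericin gene, was at 44.4 and 27.5 RPKM in European females, against 946 and 65.5 RPKM in African females (log2 fold change -2.91, SE 1.29, limma adjusted p = 0.311). Mtk, the metchnikowin gene, was at 20.6 and 11.8 RPKM in European and 333 and 30.1 RPKM in African females, and the cecropin gene CecC at 0.929 and 0.478 RPKM in European and 79.5 and 2.43 RPKM in African females. Without African replicate 1 the median was 0.056. Drosomycin (Drs), the most abundant of the group, was at 198 and 295 RPKM in European and 449.8 and 292 RPKM in African females (limma adjusted p = 0.289). The 2 members called by limma (11.1%, against 3.13% of all genes tested) were of low level, and voom on the reads called 0 of the 18. Drosocin (Dro) was at 2.51 and 2.74 RPKM in European females, against 1.08 and 0.944 RPKM in African females (log2 fold change 1.22, SE 0.18, limma adjusted p = 0.0468), and Drsl3 had 3 reads in Europe and 17 in Africa (Africa over Europe 5.71, 95% counting interval 1.65 to 30.4).

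Markers of other tissues were compared in the same way. Of 22 muscle genes 1 was called (4.55%, near the 3.13% of all genes tested), and 16 had positive values (median 0.29, against 51.3% positive over all genes tested). The called gene was Act87E, an actin gene, at 31.7 and 31.9 RPKM in European females, against 17.8 and 19.5 RPKM in African females (log2 fold change 0.69, SE 0.078, limma adjusted p = 0.0288). The median of the muscle genes was 0.15 without African replicate 2, 0.20 without European replicate 1 and 0.41 without European replicate 2. The geometric means of muscle genes were 11.2 and 8.79 RPKM in European females, against 9.32 and 8.44 RPKM in African females. Of 47 digestive enzyme genes of the midgut, 1 was called (2.13%), the lysozyme gene LysX at 33.5 and 22.9 RPKM in European females, against 6.88 and 8.10 RPKM in African females (log2 fold change 1.80, SE 0.21, limma adjusted p = 0.0319). The geometric means were 2.49 and 1.89 RPKM in European females, against 3.53 and 2.22 RPKM in African females. In males the same list had a median log2 fold change of -3.14. There 8 of its 47 genes were called higher in Africa, against 62 of all 11919 genes tested in males. None of the genes of testis (17 tested), accessory gland (21), ovary (35), fat body (14), oenocytes (8), neurons (14) or hemocytes (14) was called by limma. Of these 120 genes 8 had an unadjusted p below 0.05, a smaller share than the 2237 of all 11253 genes tested. By voom on the reads 2 of them were called, Lsp2 of the fat body and Syt1 of neurons. The accessory gland genes were at 1.70 and 0.291 RPKM in European females, against 0.343 and 0.420 RPKM in African females, so that European replicate 1 stood above the other libraries. A part of these tissues in the called genes was not tested.

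**Figure D4:**
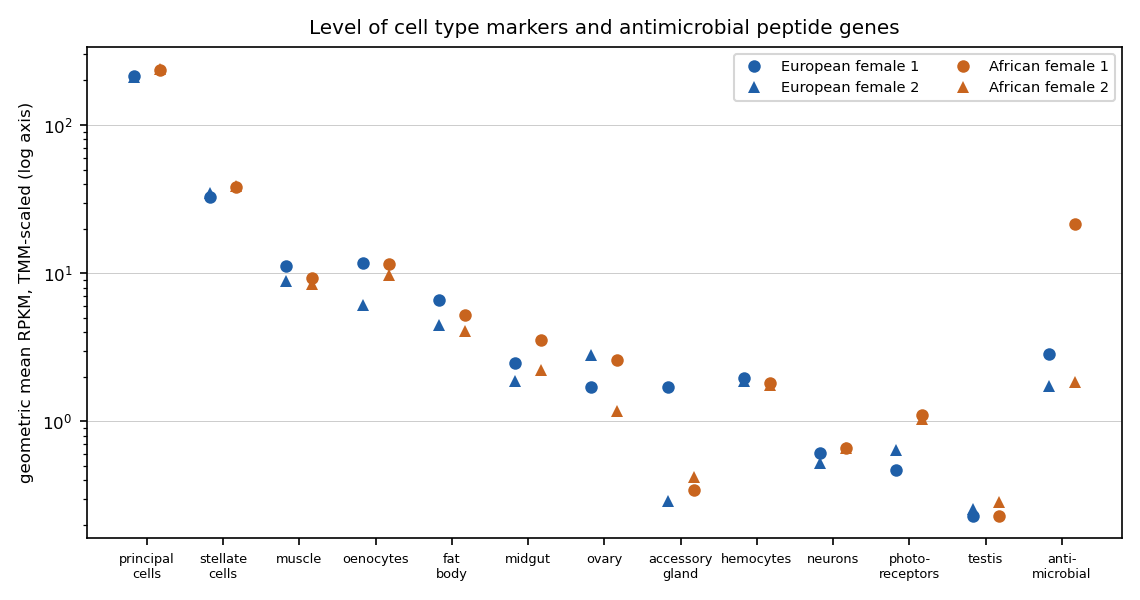
Geometric mean RPKM after TMM scaling (log axis) of marker genes of 12 cell types or tissues and of antimicrobial peptide genes in each female library, with European females in blue left of African females in orange, replicate 1 as a circle and replicate 2 as a triangle. Principal cell genes are at 213 and 212 RPKM in European and 235 and 238 RPKM in African females. Stellate cell genes are at 32.5 and 34.9 RPKM in European and 38.4 and 38.6 RPKM in African females. Antimicrobial peptide genes are at 21.6 RPKM in African replicate 1 alone and accessory gland genes at 1.70 RPKM in European replicate 1 alone.

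Called genes were found on all major chromosome arms, at 3.23% of genes tested on 2L, 3.11% on 2R, 3.05% on 3L, 3.64% on 3R and 2.47% on the X chromosome. By the gene order of the RefSeq annotation of Release 6, used here for order and not for positions, 351 called genes could be placed. Of 702 immediate neighbors of these genes among those tested, 58 (8.26%) were called as well, against 3.13% of all tested genes that were placed. There were 29 pairs of neighbors that were both called, 26 of them in the same direction and 3 in opposite directions, whereas over all 11223 pairs of tested neighbors the sign was the same in 53.8%. In 10 of the 26 pairs the genes overlapped, such as Adh and Adhr, and whether the counting used strand is not given in the sources used here. Hsc70-2, CG31157 and CG7966 on 3R formed a run of 3 genes higher in Europe. CG31157 was at 14.5 and 10.8 RPKM in European females, against 0.347 and 0.368 RPKM in African females (log2 fold change 4.72, SE 0.20, limma adjusted p = 0.00693), and CG7966 at 249.8 and 211 RPKM in European females, against 85.5 and 74.3 RPKM in African females (log2 fold change 1.45, SE 0.11, limma adjusted p = 0.0154). On the X chromosome CG11699, Kmn1, a kinetochore gene, and Reepl1 formed another, with CG11699 at 69.4 and 75 RPKM in European females, against 23.1 and 20.4 RPKM in African females (log2 fold change 1.65, SE 0.076, limma adjusted p = 0.00711). CG18547, CG12224 and CG3397 on 3R formed a run higher in Africa, at log2 -1.24, -1.90 and -1.75.

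The male libraries gave the same comparison in separate flies of the same lines. Of 351 genes called in females and tested in males, 344 (98.0%) had the same sign in males, against 69.6% of the 11056 genes tested in both sexes. In males alone 145 of 11919 genes were called (83 higher in Europe and 62 higher in Africa). A call in both sexes and in the same direction was found for 88 genes, or 25% of the female and 60.7% of the male calls, and none in opposite directions. CG13654 had a log2 fold change of 5.82 in females and 5.70 in males, CG14110 of -5.46 and -5.58, Cyp6g1 of 1.04 and 1.08, and ninaD of -1.70 and -2.17. The male count rested on few libraries as well, with 318 calls without African male replicate 1 and 0 without either European male library.

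The difference between the sexes was tested as an interaction in a fit of all 8 libraries. It was called for 7 of 12580 genes (0.0556%), with 964 at an unadjusted p below 0.05. Among the 352 genes called in females there were 3 of the 7. CG18180 was at 13.5 and 13.7 RPKM in European females, against 1.02 and 0.665 RPKM in African females, whereas males held 22.2 and 14.1 RPKM in European males, against 15.1 and 14.2 RPKM in African males (interaction log2 3.65, SE 0.34, limma adjusted p = 0.0441). The gene was therefore higher in Europe in females, with no call in males (log2 0.17, limma adjusted p = 0.748), and its interaction passed in 4 of 17 other settings. The gene sel and CG15742 were higher in Europe in both sexes, with log2 fold changes of 0.75 and 1.34 in females, against 1.84 and 2.19 in males (interaction log2 -1.09, SE 0.093, limma adjusted p = 0.0347 and log2 -0.84, SE 0.076, limma adjusted p = 0.0432). For Desat2 the interaction was -3.94 on the log2 scale and did not pass (limma adjusted p = 0.076), although its sign differed between the sexes. The other called genes with opposite signs were Dro, CG1946, CG9672, CG5011, Oat and Sugb, and none had a called interaction or a call in males. Leaving out a library changed which interactions were called. There were 2 calls without African female replicate 1 and 3 each without African male replicate 1 or European male replicate 1, with 1 of the 7 genes among them each time. Without African male replicate 2 there were 9 calls with 4 of the 7 among them, and without African female replicate 2, European female replicate 1, European female replicate 2 or European male replicate 2 there were 0.

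**Figure D5:**
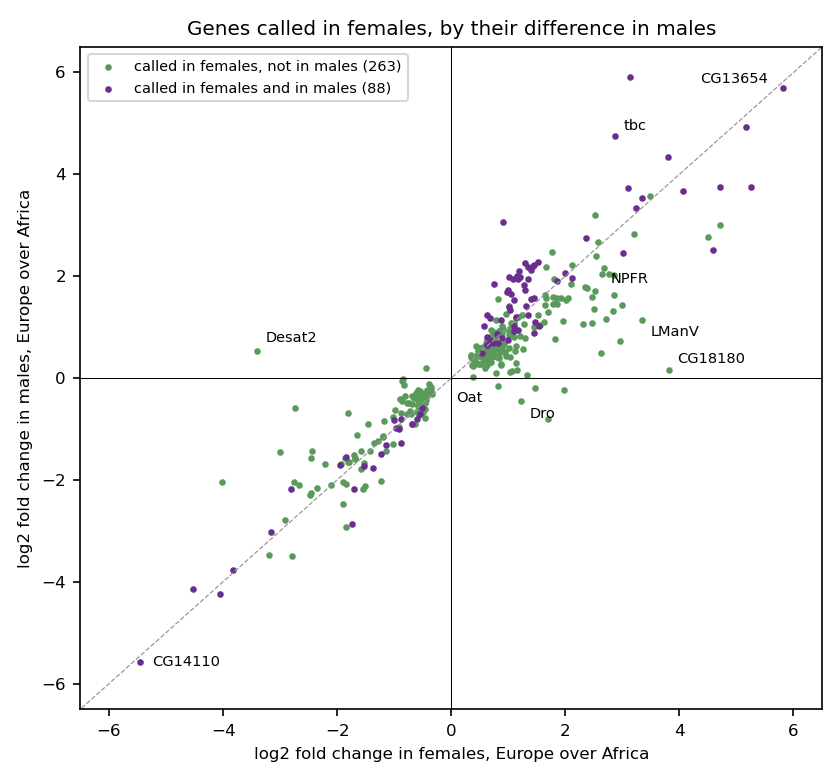
Log2 fold change of Europe over Africa in females (horizontal axis) and in males (vertical axis) for the 351 genes called in females and tested in males, with 88 genes called in both sexes in purple, 263 called in females alone in green and equal values on the dashed line. All but 7 points lie in the lower left or upper right part, with Desat2 the farthest of the 7 and CG18180 close to 0 in males.

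The study named genes with a strong population bias from these same libraries, so that their values are a description and no independent evidence. Of 10 such genes higher in Africa, 9 were called in females and Cep290, a gene of cilia, was at 0.0557 and 0.0286 RPKM in European and 0.404 and 0.302 RPKM in African females (limma adjusted p = 0.056, and called by voom on the reads). All 10 such genes higher in Europe were called (9 by voom on the reads, without tbc), including tbc, CG4927 and CG11313 at log2 2.88, 3.10 and 3.35. Of 9 matched genes that the study named for opposite bias in the sexes, none was called by limma in females, with 8 at an unadjusted p below 0.05 and 0 called by voom on the reads. Among them wbl was at 0.0388 and 0.112 RPKM in European females, against 1.28 and 0.426 RPKM in African females (log2 fold change -2.36, SE 0.54, limma adjusted p = 0.116), and Dred at 3.30 and 1.33 RPKM in European females, against 0.612 and 0.633 RPKM in African females (log2 fold change 1.54, SE 0.45, limma adjusted p = 0.172).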

How the data were processed

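Poly(A) RNA of whole tubules was read in a single lane. Alignment was to FlyBase transcripts with NextGenMap, and all isoforms of a gene were counted together. The deposited values are RPKM, which the authors computed for 13942 genes in each library. They scaled these by the longest transcript and the mapped reads, with no factor for library composition. Whether counting used strand is not given in the sources used here. Converted back with transcript length and depth, 100% of values came out whole (tolerance 0.01 read), and these reads served the filters and voom. The authors tested with DESeq2 on counts; since the deposited unit is RPKM, limma 3.58.1 in R 4.3.3 was applied to log2(RPKM + 0.1) after TMM scaling (30% and 5% trimmed), with an intensity trend, Benjamini-Hochberg adjustment and a call at 5%. Females were fitted alone on genes with at least 12 reads over the 4 libraries, males likewise, and the interaction over all 8.

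The script was tested on simulated data. Genes were named from the FlyBase gene ID (13585) or the CG number (261), and 96 had no match. The genes described were the 12 with the largest fold and the 8 with the highest mean in each direction, up to 4 called genes per list, genes the study names, the leading interactions and the top gene of each tissue list; further called list members, neighbors and genes with an adjusted p above 0.05 were added after their values were seen. The members and lists were chosen with earlier results of these data known. No sequences or coordinates are given, since the files use another annotation release than the reference at hand.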

Additional observations from a re-analysis of the deposited data

Results flagged for a closer look

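The population difference was not the same in the sexes for 7 genes by the interaction test of limma over all 8 libraries. For 5 of them the difference of females minus that of males was positive. CG18180, described above, had an interaction of log2 3.65. In the other 4 the females did not pass the test and the males did. Amy-p and Amy-d encode amylases, digestive enzymes of the midgut, and their reads may be shared because the copies are nearly identical. The interaction was log2 5.96 for Amy-p, with 3.95 and 4.33 RPKM in European and 4.74 and 3.34 RPKM in African females and with 5.14 and 2.94 RPKM in European males, against 325 and 169 RPKM in African males. It was log2 6.10 for Amy-d, with 2.64 and 3.58 RPKM in European and 4.89 and 3.70 RPKM in African females and with 3.27 and 2.06 RPKM in European males, against 350.2 and 177 RPKM in African males. The P450 gene Cyp303a1 had an interaction of log2 4.43, with 1.43 and 1.17 RPKM in European and 1.34 and 1.18 RPKM in African females and with 1.25 and 1.20 RPKM in European males, against 25.2 and 29.2 RPKM in African males. The GATA factor gene pnr had one of log2 4.34, with 0.213 and 0.236 RPKM in European and 0.128 and 0.166 RPKM in African females and with 0.193 and 0.203 RPKM in European males, against 4.74 and 4.01 RPKM in African males. Midgut genes were also higher in African than in European male libraries as a list, as given above, and their part in these values was not tested.

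For sel and CG15742 the difference was negative, at log2 -1.09 and -0.84. Both were higher in Europe in both sexes, by less in females than in males. The genes da and CG4949 had the same pattern without passing the interaction test, at log2 -0.61 and -0.77 (limma adjusted p = 0.0753 and 0.0753). Jon65Ai, a digestive protease gene, and wbl did not pass either, at log2 6.31 and -5.44.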

How the results depend on the processing

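The count of calls depended on how limma moderated the spread over 2 libraries a side. Without the intensity trend 4 of the 352 genes called in females were left (3 higher in Europe and 1 in Africa), and in males 1 gene was called. The interaction had 3 calls in that fit, 2 of them among the original 7. With a minimum of 12 reads over all 8 libraries 214 genes were called (144 and 70). A fit of all 8 libraries used this filter too, with 12580 genes tested, so that filter and fit changed together. It gave 490 calls with 194 higher in Africa in females and 651 in males. Without a filter on reads males had 90 calls. The interaction had 2 calls with library size alone and 1 with voom on the reads. Leaving out each library in turn gave 0 to 195 calls in females (0 to 118 higher in Europe and 0 to 87 higher in Africa), 0 to 318 in males and 0 to 9 for the interaction. The other scalings, pseudocounts and filters and voom gave 328 to 447 calls in females. With the replicate block 300 genes were called in females (190 higher in Europe and 110 in Africa), 248 of them also called without it, and 210 in males. The deviations of same-numbered European and African female libraries had r = 0.26 across 8707 genes, which are not independent replicates, and with 2 pairs this does not show that the numbers mark a shared batch.

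Of 134 called genes considered for description, all kept their sign under each alternative for females. Since the populations did not overlap in any called gene, leaving out a library or changing the pseudocount could hardly reverse a sign. Of the 134, 77 kept their call under all alternatives but those that left out a library or the trend. With voom on the reads 12 of the 134 lost their call, namely CG10257, CG10352, CG32718, CG33468, Cyp4aa1, Dro, Drsl3, Gbeta76C, Obp56a, Ugt49B2, jhamt and tbc. Of 17 alternatives the interaction passed in 13 for Cyp303a1, 9 for pnr, 7 each for Amy-d and Amy-p, 6 for CG15742, 5 for sel and 4 for CG18180. Genes without a call and with values near 0 or high in a single library changed sign. With library size alone Amy-p was at log2 0.054 and Cyp303a1 at 0.036. With voom Amy-p was at 0.020 and Jon65Ai at 0.012. Over the fits that left out 1 library each, the log2 values ran between -0.25 and 0.21 for Amy-p, -6.0 and 1.12 for AttB, -0.17 and 0.11 for Cyp303a1, -2.11 and 0.45 for Cyp4g1, -0.31 and 0.12 for EbpIII, and -0.70 and 0.43 for Jon65Ai. They ran between -0.039 and 0.57 for Yp1, -1.20 and 0.62 for alphaTry, and -0.013 and 0.12 for crq.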

Other observations

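A large fold did not by itself lead to a call. Of 155 genes tested that differed more than 4-fold between European and African females, 68 were called and 87 were not, and in 27 of the 87 the libraries of the populations overlapped. The genes not called included Idgf1, a gene of the chitinase-like growth factors, at 222 and 146 RPKM in European females, against 27.2 and 50.8 RPKM in African females (log2 fold change 2.20, SE 0.37, limma adjusted p = 0.0651). These genes and those below were named after their values were seen.

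Each African replicate had its own set of genes far above the other 3 female libraries, by a rule chosen after the data were seen (at least 10 RPKM and at least 10-fold above each of the others). In African replicate 2 these were 15 genes that made up 1.51% of its summed RPKM. The gene whe was at 8.10 and 3.07 RPKM in European females, against 12.1 and 3279 RPKM in African females, CG16826 at 5.69 and 4.26 RPKM in European and 9.35 and 2255 RPKM in African females, CG45080 at 2.41 and 1.74 RPKM in European and 6.41 and 1146 RPKM in African females and lcs at 2.68 and 1.29 RPKM in European and 1.96 and 806 RPKM in African females. Whe and its companions were not specific to that library within the series, since whe was at 410.4 and 725 RPKM in European males, against 9.88 and 1085 RPKM in African males, and lcs at 312 and 565 RPKM in European males, against 4.59 and 367 RPKM in African males. African replicate 2 also held 282 RPKM of chb, a gene of a microtubule-binding protein, which was between 10.9 and 12.3 RPKM in the other 7 libraries. In African replicate 1 the set held 21 genes and 0.410% of the summed RPKM. It included DptA, Mtk, AttB and other antimicrobial peptide genes, and CG8997 at 3.27 and 0.685 RPKM in European and 138 and 1.67 RPKM in African females, which was also high in African males at 290 and 50.8 RPKM. AttB was at 1.69 and 1.18 RPKM in European and 92.6 and 0.554 RPKM in African females. In European replicate 1 the genes were 5, among them the accessory gland genes Mst57Da and Mst57Db at 11.3 and 18.1 RPKM, and in European replicate 2 they were the eggshell genes Cp16 and Cp18 at 12.7 and 19.8 RPKM. None of the genes named in this paragraph was called between the populations.

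Genes known by a CG number alone made up 43.2% of the called genes, against 38.5% of the genes tested.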
